A study of Arabidopsis thaliana with 34 samples.

Results

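Transcript levels of 10 aquaporin genes were followed through 34 RNA-seq samples of *Arabidopsis thaliana* that carry or lack large deletions of duplicated chromosome blocks. The genes were taken by locus, 10 of the 27538 genes quantified. The rule itself uses no measured value, but the members were chosen with earlier results of these data known. Among them are 5 tonoplast intrinsic protein (TIP) genes, GAMMA-TIP (TIP1;1, AT2G36830), GAMMA-TIP2 (TIP1;2, AT3G26520), DELTA-TIP (TIP2;1, AT3G16240), DELTA-TIP2 (TIP2;2, AT4G17340) and DELTA-TIP3 (TIP2;3, AT5G47450). The other 5 are plasma membrane intrinsic protein (PIP) genes, PIP1A (PIP1;1, AT3G61430), PIP1B (PIP1;2, AT2G45960), PIP2A (PIP2;1, AT3G53420), PIP2B (PIP2;2, AT2G37170) and PIP2F (PIP2;4, AT5G60660). The names are RefSeq symbols or synonyms of the loci.

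Aquaporins are membrane channels that assemble as tetramers, and each subunit holds its own water pore. TIPs sit in the tonoplast, the membrane around the vacuole, and PIPs in the plasma membrane, so that together they set how easily water crosses a plant cell and its vacuole. In maize, PIP1 proteins need a PIP2 partner to reach the plasma membrane. In *Arabidopsis*, PIP1B and PIP2B contribute to water uptake by roots, PIP2A acts in roots and guard cells, and DELTA-TIP3 and PIP2F are known mainly as root genes.

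Seedlings homozygous for the pAP142 deletion (T4) were pooled in the morning (t2, 3 samples) or in the evening (t1, 3 samples). Seedlings homozygous for the pAP141 deletion (T4) were pooled at t2 (2 samples) or t1 (4 samples), and Col-0 wild-type seedlings served as controls at t2 (3 samples) and t1 (4 samples). In the pAP146 experiment (T3), 4 samples were whole seedlings homozygous for the deletion, which develop slowly, and leaves of single plants were taken from 3 heterozygous plants, 4 siblings without the deletion and 4 Col-0 plants. Each deletion is 1 line, made with *Staphylococcus aureus* Cas9, and pAP142 plants also carry other sequence differences from Col-0. The paper describes pAP142 plants as smaller and pale green, with serrated leaves. The part of this growth difference in the levels below was not tested. Because homozygous pAP146 samples are seedlings and their controls are leaves, genotype and tissue cannot be told apart there. Nothing says whether pools of a group came from separate plates, so p-values measure only the spread between these samples.

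Samples held 26640541 to 43851997 estimated reads. Genes inside the deleted blocks matched the labels: the tetraspanin gene TET3 had 0 TPM in every pAP141 sample, the ribosomal protein gene ES24Y reached at most 0.183 TPM in pAP142 samples, and the jasmonate signalling gene JAZ11 had 0 TPM in homozygous pAP146 seedlings. TPM is an abundance that corrects reads for transcript length and scales every sample to the same total. Morning clock genes (5 genes) summed to 207 to 281 TPM in Col-0 t2, against 9.03 to 12.8 TPM in Col-0 t1, and evening clock genes (5 genes) to 21.5 to 31.6 TPM in Col-0 t2, against 275 to 334 TPM in Col-0 t1. All 10 members passed the filter on low counts in each of the 3 fits.

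In the TAIR10.1 assembly the TIP genes stand at chr2:15445294-15446621 (GAMMA-TIP, plus strand), chr3:9722443-9723904 (GAMMA-TIP2, minus strand), chr3:5505360-5507050 (DELTA-TIP, plus strand), chr4:9698940-9700472 (DELTA-TIP2, plus strand) and chr5:19248249-19249622 (DELTA-TIP3, minus strand). They have 2 exons, or 3 in DELTA-TIP. The PIP genes have 4 exons each and stand at chr3:22733243-22735394 (PIP1A, plus strand), chr2:18910081-18911982 (PIP1B, plus strand), chr3:19803473-19805730 (PIP2A, minus strand), chr2:15613368-15615022 (PIP2B, minus strand) and chr5:24375368-24377206 (PIP2F, minus strand). DELTA-TIP is the only member whose gene overlaps others, on the opposite strand, over 46 of its coding bases.

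The family is marked by a pair of Asn-Pro-Ala (NPA) motifs that meet inside the pore, and 2 were found in each of the 10 coding sequences. The 51 coding bases around the first NPA are given for every member, to set the genes side by side at the site they share. They come from RefSeq on TAIR10.1, read 5′ to 3′ on the coding strand, with the NPA codons in capitals.
GAMMA-TIP: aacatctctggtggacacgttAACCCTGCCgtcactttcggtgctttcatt
GAMMA-TIP2: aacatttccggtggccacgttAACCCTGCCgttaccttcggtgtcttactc
DELTA-TIP: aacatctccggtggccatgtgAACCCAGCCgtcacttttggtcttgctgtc
DELTA-TIP2: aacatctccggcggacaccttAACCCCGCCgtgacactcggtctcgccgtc
DELTA-TIP3: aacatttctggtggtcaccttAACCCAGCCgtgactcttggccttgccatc
PIP1A: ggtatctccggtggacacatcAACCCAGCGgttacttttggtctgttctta
PIP1B: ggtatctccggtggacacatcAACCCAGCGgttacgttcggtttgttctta
PIP2A: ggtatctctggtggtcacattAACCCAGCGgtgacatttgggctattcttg
PIP2B: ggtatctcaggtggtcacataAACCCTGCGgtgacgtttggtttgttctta
PIP2F: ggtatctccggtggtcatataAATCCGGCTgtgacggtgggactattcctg
The Asn codon is AAC in every member but PIP2F, which has AAT, and the last bases of the proline and alanine codons vary. Over aligned coding bases GAMMA-TIP and GAMMA-TIP2 are 81.7% identical, DELTA-TIP2 and DELTA-TIP3 83.2%, PIP1A and PIP1B 87.6%, and PIP2A and PIP2B 86.4%.

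Counts of PIP2B are the least certain, because PIP2C (PIP2;3, AT2G37180), beside it on the chromosome, is nearly a copy. Their coding sequences are 94.8% identical over 858 aligned bases, and 33.33% of the 31-base windows of PIP2B also occur in PIP2C. Of the other 9 members, none shares more than 3.36% of such windows with any other aquaporin gene. The first 150 coding bases of PIP2C and the matching bases 130 to 279 of PIP2B show how few positions tell them apart, with the 12 differing bases in capitals.
PIP2B: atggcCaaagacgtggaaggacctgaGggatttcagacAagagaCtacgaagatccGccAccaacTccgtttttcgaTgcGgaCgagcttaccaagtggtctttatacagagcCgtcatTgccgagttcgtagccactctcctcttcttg
PIP2C: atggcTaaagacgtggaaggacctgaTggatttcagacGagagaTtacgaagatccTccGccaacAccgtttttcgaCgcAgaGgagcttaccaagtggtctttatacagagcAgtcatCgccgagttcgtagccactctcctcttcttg
Reads that fall between the differing bases are shared out by estimate, so values of PIP2B are also given below with the reads of PIP2C added.

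Upstream sequence is shown for a pair of close relatives whose levels part in leaves, DELTA-TIP2 and DELTA-TIP3, and for a pair that rose together in the morning, PIP1A and PIP1B. The 250 bases before each annotated start read 5′ to 3′ on the gene's strand, with the I-box core, a sequence known from light-regulated promoters, in capitals.
DELTA-TIP2: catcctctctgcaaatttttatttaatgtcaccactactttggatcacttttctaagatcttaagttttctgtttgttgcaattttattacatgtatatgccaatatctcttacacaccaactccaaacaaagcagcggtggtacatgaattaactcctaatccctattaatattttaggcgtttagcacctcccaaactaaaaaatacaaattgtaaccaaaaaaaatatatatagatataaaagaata
DELTA-TIP3: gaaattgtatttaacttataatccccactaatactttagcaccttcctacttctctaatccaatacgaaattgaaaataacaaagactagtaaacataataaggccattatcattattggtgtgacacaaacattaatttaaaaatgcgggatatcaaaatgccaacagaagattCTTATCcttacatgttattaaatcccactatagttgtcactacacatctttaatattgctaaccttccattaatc
PIP1A: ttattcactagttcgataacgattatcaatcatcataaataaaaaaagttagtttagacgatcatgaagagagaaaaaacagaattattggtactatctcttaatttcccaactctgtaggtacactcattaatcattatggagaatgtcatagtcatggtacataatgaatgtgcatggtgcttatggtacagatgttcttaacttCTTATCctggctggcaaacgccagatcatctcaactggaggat
PIP1B: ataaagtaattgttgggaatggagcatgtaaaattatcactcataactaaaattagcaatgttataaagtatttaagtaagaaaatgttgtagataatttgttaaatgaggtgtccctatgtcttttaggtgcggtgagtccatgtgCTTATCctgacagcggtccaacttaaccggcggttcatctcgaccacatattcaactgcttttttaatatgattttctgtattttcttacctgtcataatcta
These windows lie at chr4:9698690-9698939, chr5:19249623-19249872, chr3:22732993-22733242 and chr2:18909831-18910080 in TAIR10.1. The I-box core GATAAG, searched on both strands, was found in DELTA-TIP3, PIP1A and PIP1B (3 of 10 members) and in 12.3% of 27349 promoters of this length. It lies 70 bases from the start in DELTA-TIP3, 38 in PIP1A and 98 in PIP1B, each time as CTTATC on the gene's strand. The longest run that PIP1A and PIP1B share, cttatcctg, contains it, and the longest that DELTA-TIP2 and DELTA-TIP3 share is tttagcacct. The evening element (AAAATATCT), the CCA1-binding site (AAAAATCT) and the G-box (CACGTG), searched on both strands, were in 0 of the 10 windows and in 2.36%, 6.7% and 6.51% of all promoters.

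GAMMA-TIP2, a vacuolar channel of the gamma group, was the most abundant member of wild-type seedlings, with 1134 ± 45.9 TPM in Col-0 t2 (SD, n = 3) and 837 ± 94.8 TPM in Col-0 t1 (SD, n = 4). At t2 DELTA-TIP (930.0 ± 109 TPM), PIP2A (918 ± 71.4 TPM) and PIP1B (826 ± 32.7 TPM) followed, and these neighbours did not differ beyond their spread. GAMMA-TIP (498 ± 40.5 TPM) and PIP1A (339.7 ± 20.3 TPM) stood lower, then PIP2B (128 ± 17.8 TPM) and DELTA-TIP2 (113 ± 4.48 TPM), which did not differ beyond their spread. DELTA-TIP3 (15.3 ± 1.599 TPM) and PIP2F (4.52 ± 1.17 TPM), the root genes of the set, were lowest. At t1 the order was GAMMA-TIP2, GAMMA-TIP (592 ± 90.8 TPM), PIP1B (449 ± 7.18 TPM), DELTA-TIP (374 ± 57.8 TPM) and PIP2A (282 ± 21.7 TPM), of which only the last pair overlapped. PIP1A (150.3 ± 18.98 TPM), DELTA-TIP2 (125 ± 22.3 TPM) and PIP2B (116 ± 14.8 TPM) came next and overlapped, and DELTA-TIP3 (14.2 ± 5.001 TPM) and PIP2F (6.17 ± 1.77 TPM) were again lowest.

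In Col-0 leaves GAMMA-TIP2 led as well (1082 ± 53.8 TPM, SD, n = 4). PIP2A (556 ± 126 TPM), DELTA-TIP (504 ± 111 TPM), PIP1B (451 ± 63.9 TPM) and GAMMA-TIP (448 ± 138 TPM) overlapped. PIP1A (174 ± 28.6 TPM) and DELTA-TIP2 (145 ± 68.4 TPM) also overlapped, above PIP2B (62.6 ± 15.3 TPM). PIP2F was at 0.649 ± 0.227 TPM, and DELTA-TIP3 had no read in any of the 4 libraries. The root markers, 16 genes, summed to only 3.13 to 6.24 TPM in these leaves, and 10 of them, among them the root hair genes EXPA7, EXPA18 and RHD6, were at 0 in all 4 samples.

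**Figure D1:**
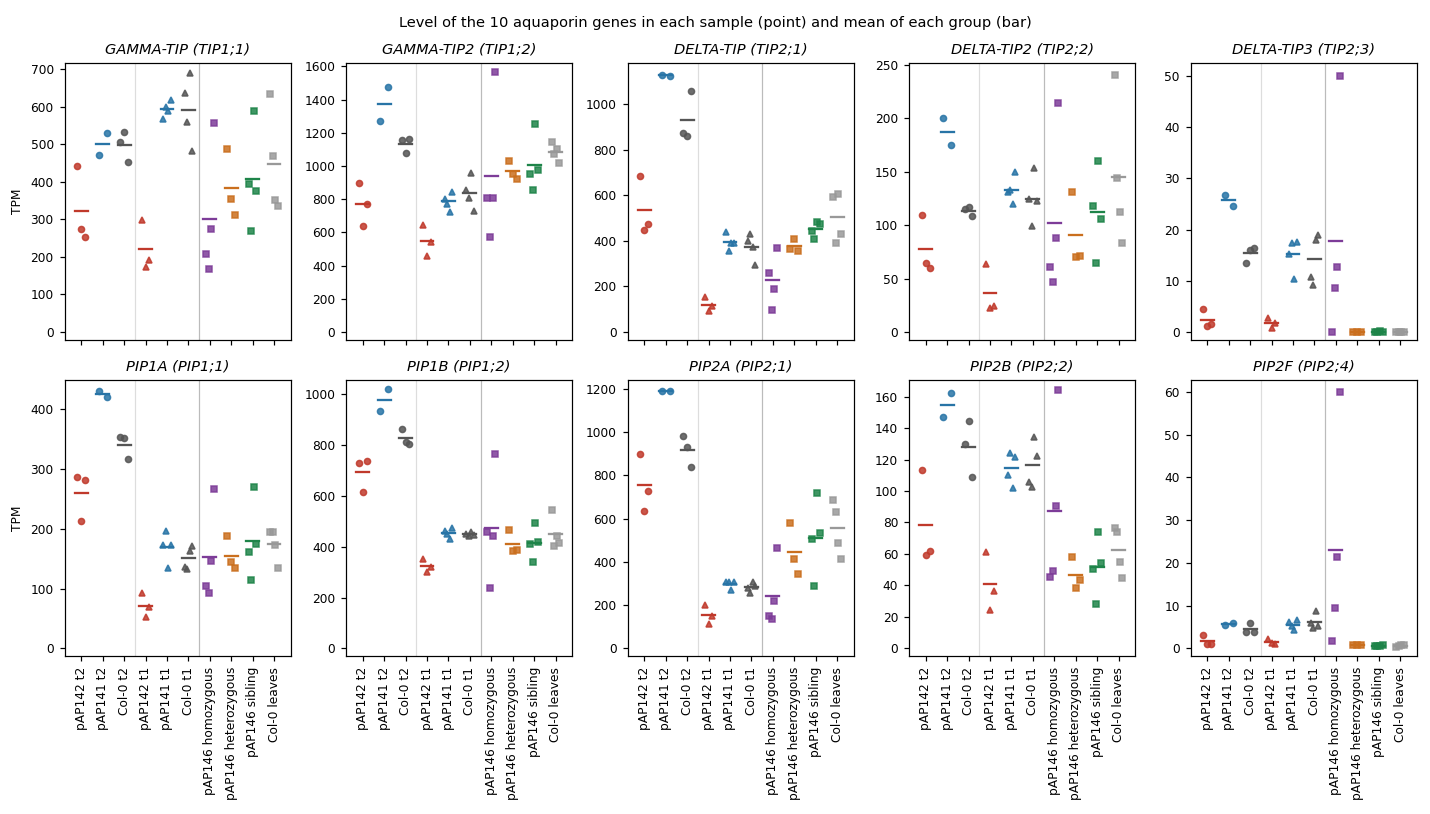
TPM (y) of each member in each of the 34 samples (points) and the mean of each group (bar), with circles for t2, triangles for t1 and squares for the pAP146 experiment. The pAP142 t1 group has the lowest mean of the 6 time of day groups in all 10 panels, and DELTA-TIP3 is at or near 0 TPM in leaves.

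The 10 members together made up 0.295 to 0.417% of all TPM in pAP142 t2, 0.580 to 0.612% in pAP141 t2 and 0.485 to 0.4998% in Col-0 t2. At t1 the shares were 0.123 to 0.187% in pAP142, 0.277 to 0.310% in pAP141 and 0.268 to 0.326% in Col-0. In the pAP146 experiment they were 0.142 to 0.447% in homozygous seedlings, 0.257 to 0.330% in heterozygous leaves, 0.237 to 0.404% in sibling leaves and 0.287 to 0.411% in Col-0 leaves. The pAP142 samples were thus below the other seedling groups of the same time, and homozygous pAP146 seedlings covered the widest range.

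The comparison of pAP142 with Col-0 asks what loss of this block does to other genes. In the evening all 10 members fell in pAP142, by 1.34-fold (PIP1B) to 7.80-fold (DELTA-TIP3), and the TPM ranges of the genotypes were separate for every one. The share of all genes with separate ranges was not counted. A gene is called here at an adjusted p under 0.05 in edgeR over all genes tested, and 8.94% of the 21356 genes were called lower in this comparison. The median log2 fold change was -1.41 over the members and -0.03 over all genes. DESeq2, and limma on log2(TPM + 1), also called all 10.

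Among the TIPs, DELTA-TIP3 had 2.71, 0.855 and 1.70 TPM in pAP142 t1, against 10.7, 9.16, 18.05 and 18.97 TPM in Col-0 t1. Its log2 fold change was -2.96 ± 0.45 (SE here and below, adjusted p = 0.000417 in edgeR), and the genotypes were far apart. DELTA-TIP2, the member closest to it in sequence, had 63.4, 22.7 and 24.6 TPM in pAP142 t1, against 124, 99.1, 154 and 123 TPM in Col-0 t1 (log2 fold change -1.69 ± 0.33, adjusted p = 0.00247 in edgeR). Within pAP142, replicate 1 of DELTA-TIP2 stood well above replicates 2 and 3 while remaining under all Col-0 samples. DELTA-TIP, the delta TIP of shoots, had 152, 90.5 and 116 TPM in pAP142 t1, against 401, 429, 371 and 295 TPM in Col-0 t1 (log2 fold change -1.596 ± 0.21, adjusted p = 0.0001 in edgeR). GAMMA-TIP had 299, 172 and 192 TPM in pAP142 t1, against 636, 561, 691 and 482 TPM in Col-0 t1 (log2 fold change -1.37 ± 0.21, adjusted p = 0.000338 in edgeR). GAMMA-TIP2 had 647, 458 and 544 TPM in pAP142 t1, against 857, 808, 955 and 728 TPM in Col-0 t1 (log2 fold change -0.56 ± 0.15, adjusted p = 0.0155 in edgeR), the smallest fall among the TIPs.

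Among the PIPs, PIP2F had 2.32, 1.20 and 1.001 TPM in pAP142 t1, against 6.02, 4.77, 8.71 and 5.19 TPM in Col-0 t1 (log2 fold change -1.97 ± 0.37, adjusted p = 0.00189 in edgeR). PIP2B had 61.2, 24.6 and 36.7 TPM in pAP142 t1, against 106, 103, 134 and 122 TPM in Col-0 t1 (log2 fold change -1.44 ± 0.27, adjusted p = 0.0018 in edgeR). With the reads of PIP2C added its log2 fold change was -1.41 ± 0.25, adjusted p = 0.00107 in edgeR, so the sum was called lower as well. PIP1A had 93.2, 51.9 and 68.4 TPM in pAP142 t1, against 136, 132, 162 and 171 TPM in Col-0 t1 (log2 fold change -1.02 ± 0.21, adjusted p = 0.00273 in edgeR). PIP2A, a PIP of roots and guard cells, had 199, 111 and 151 TPM in pAP142 t1, against 279, 254, 306 and 289 TPM in Col-0 t1 (log2 fold change -0.82 ± 0.18, adjusted p = 0.00471 in edgeR). PIP1B had 352, 301 and 322 TPM in pAP142 t1, against 451, 442, 459 and 446 TPM in Col-0 t1 (log2 fold change -0.43 ± 0.11, adjusted p = 0.0129 in edgeR), the smallest fall of the 10. GAMMA-TIP2 and PIP1B were no longer called without pAP142 t1 replicate 2 or without replicate 3 (8 members called), and GAMMA-TIP2 was not called without Col-0 t1 replicate 3 (9 members called). In 1 model of all 34 samples GAMMA-TIP2, PIP1B, PIP2A and PIP2F were not called (6 members called).

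In the morning all 10 values were again below 0, and 4 members were called, beside 2.67% of all genes called lower. The median was -0.58 over the members and -0.01 over all genes. DELTA-TIP3 had 4.48, 1.15 and 1.62 TPM in pAP142 t2, against 13.5, 16.1 and 16.4 TPM in Col-0 t2 (log2 fold change -2.66 ± 0.46, adjusted p = 0.00253 in edgeR). PIP2F had 3.18, 1.17 and 1.08 TPM in pAP142 t2, against 3.88, 5.87 and 3.81 TPM in Col-0 t2 (log2 fold change -1.30 ± 0.39, adjusted p = 0.0488 in edgeR). For both of these root genes the genotypes were separate, and pAP142 replicate 1 stood well above replicates 2 and 3. DELTA-TIP had 686, 449 and 473 TPM in pAP142 t2, against 875, 859 and 1056 TPM in Col-0 t2 (log2 fold change -0.79 ± 0.22, adjusted p = 0.0319 in edgeR). GAMMA-TIP2 had 895, 639 and 769.9 TPM in pAP142 t2, against 1157, 1081 and 1163 TPM in Col-0 t2 (log2 fold change -0.55 ± 0.16, adjusted p = 0.0452 in edgeR). Neither overlapped Col-0 in any sample. The ranges were also separate for GAMMA-TIP, PIP1A and PIP1B, which were not called, so that 7 members separated. The share of all genes with separate ranges was not counted here either.

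The other 6 members did not pass in the morning, with GAMMA-TIP at -0.61 (adjusted p = 0.0986 in edgeR), PIP2B at -0.69 (0.142), DELTA-TIP2 at -0.53 (0.374), PIP1A at -0.37 (0.331), PIP2A at -0.26 (0.446) and PIP1B at -0.23 (0.257). DELTA-TIP3 alone was called without Col-0 t2 replicate 2, Col-0 t2 replicate 3, pAP142 t2 replicate 2 or pAP142 t2 replicate 3 (1 member called each time), and DELTA-TIP3 and DELTA-TIP without Col-0 t2 replicate 1 (2 members). Without pAP142 t2 replicate 1, GAMMA-TIP and PIP2B joined the 4 (6 members). The 1 model of all 34 samples called 0 members, and RLE size factors or no filter on counts left DELTA-TIP3 and DELTA-TIP (2 members). Whether the genotype difference changed between the times was tested as an interaction, t2 minus t1. It was above 0 for all 10, between 0.02 (GAMMA-TIP2) and 1.16 (DELTA-TIP2), and called for 0 of them by edgeR, DESeq2 or limma, beside 0.211% of all genes. An unadjusted p under 0.05 was found for 5 members, and the share of all genes under it was not counted. Without pAP142 t1 replicate 1, DELTA-TIP2 was called in it.

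**Figure D2:**
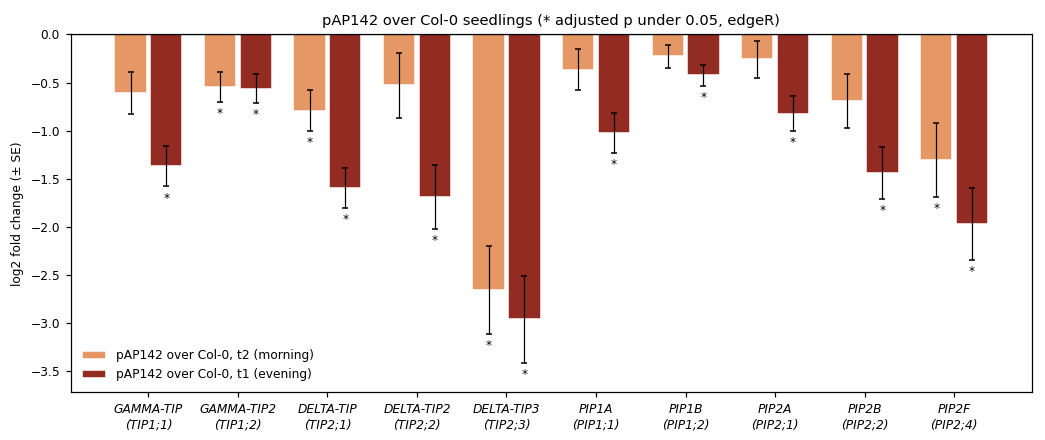
Log2 fold change (y, SE bars) of pAP142 over Col-0 seedlings for each member at t2 (light) and t1 (dark), with stars at adjusted p under 0.05 in edgeR. All bars point down, DELTA-TIP3 reaches -2.66 at t2 and -2.96 at t1, and 4 members carry a star at t2 and 10 at t1.

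Root markers moved in the same direction. The 16 genes summed to 547 to 686 TPM in pAP142 t1, against 1071 to 1239 TPM in Col-0 t1, and to 470 to 767 TPM in pAP142 t2, against 631 to 838 TPM in Col-0 t2. At t1 6 of the 16 were called lower and 0 higher, with a median log2 fold change of -0.83, and at t2 2 were called lower and 0 higher, with a median of -0.88. No defining root marker was at 0 throughout a group, though EXPA18 and the iron transporter gene IRT1 were at 0 in pAP142 t1 replicate 2. The 10 leaf markers summed to 42559 to 54122 TPM in pAP142 t1, against 54522 to 60967 TPM in Col-0 t1, with 1 called lower. The part of these shifts in the lower aquaporin levels was not tested, and in whole seedlings fewer cells of a type and less RNA per cell cannot be told apart.

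Of the 19 other aquaporin genes tested, 3 fell and 1 rose in pAP142 t1. Of all 21356 genes, 3916 were called in either direction at t1 and 1654 at t2. PIP1C (PIP1;3) changed by -0.86 (log2), PIP1D (PIP1;5) by -1.11 and PIP2C by -1.25, all of the plasma membrane group, and PIP2D (PIP2;5) rose by 0.51. At t2 PIP1C (-0.41) and PIP2C (-0.65) fell, and NLM2 (NIP1;2), of the NOD26-like group, rose by 0.49. The median over the 19 genes was -0.12 at t1 and 0.05 at t2.

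In pAP141 no member was called at either time. At t1 the log2 fold changes lay between 0.03 (PIP2F) and 0.35 (PIP1A), the TPM ranges of the genotypes overlapped for all 10, 0 members had an unadjusted p under 0.05, and DESeq2 and limma called 0, beside 0.0749% of all genes called in edgeR. On the TPM scale, where the median gene was 0.18 lower than in the fit (log2), the members lay between -0.14 (PIP2F) and 0.17 (PIP1A), so no direction is given. GAMMA-TIP, for example, had 567, 599, 589 and 619 TPM in pAP141 t1, against 636, 561, 691 and 482 TPM in Col-0 t1. At t2 all 10 values were above 0, with a median of 0.56 over the members and 0.01 over all genes, and 0.0983% of all genes were called. There 7 members had an unadjusted p under 0.05, DESeq2 called 1, PIP1B (adjusted p = 0.0201), and limma called 0. The share of all genes under that unadjusted threshold was not counted.

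Both pAP141 pools were high at t2. PIP2A had 1189.7 and 1189.7 TPM in pAP141 t2, against 982, 931 and 841 TPM in Col-0 t2 (log2 fold change 0.63 ± 0.21, adjusted p = 0.173 in edgeR). DELTA-TIP2 had 199.8 and 175 TPM in pAP141 t2, against 115, 117 and 108 TPM in Col-0 t2 (log2 fold change 0.99 ± 0.37, adjusted p = 0.206 in edgeR). DELTA-TIP3 had 26.8 and 24.6 TPM in pAP141 t2, against 13.5, 16.1 and 16.4 TPM in Col-0 t2 (log2 fold change 1.001 ± 0.45, adjusted p = 0.276 in edgeR). For 8 members, all but GAMMA-TIP and PIP2F, both pAP141 samples stood above all 3 Col-0 samples. How many of all genes separate in this way was not counted, so the 8 are not read as a rise. Without pAP141 t2 replicate 2 the lone sample left, assumed to vary like those of the other groups, gave calls for PIP1B and PIP2A (2 members). The median gene was 0.23 lower on the TPM scale than in the fit (log2), and the log2 ratios of mean TPM lay between 0.01 (GAMMA-TIP) and 0.74 (DELTA-TIP3). Root markers summed to 613 and 841 TPM in pAP141 t2, against 631 to 838 TPM in Col-0 t2, with 0 of 16 called. The interaction of pAP141 with time called 0 members in edgeR, DESeq2 and limma, with 0 at an unadjusted p under 0.05, and 0% of all genes.

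The comparison of t2 with t1 asks which genes differ between morning and evening. In Col-0, 5 members rose in the morning and 0 fell, beside 14% of all genes called higher. They were PIP2A, DELTA-TIP, PIP1A, PIP1B and GAMMA-TIP2, with no overlap between the times, and all 5 were also called in pAP142 and in pAP141. The share of all genes without overlap between the times was not counted in any genotype.

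PIP2A changed most, with 982, 931 and 841 TPM in Col-0 t2, against 279, 254, 306 and 289 TPM in Col-0 t1 (log2 fold change 1.88 ± 0.18, adjusted p = 2e-07 in edgeR). It had 900.2, 637 and 727 TPM in pAP142 t2, against 199, 111 and 151 TPM in pAP142 t1, and 1189.7 and 1189.7 TPM in pAP141 t2, against 309.6, 305, 269 and 308 TPM in pAP141 t1. Morning pools lay far above evening pools in every genotype. That is 5.46-fold higher in the morning in pAP142, 4.79-fold in pAP141 and 3.69-fold in Col-0. DELTA-TIP had 875, 859 and 1056 TPM in Col-0 t2, against 401, 429, 371 and 295 TPM in Col-0 t1 (log2 fold change 1.52 ± 0.20, adjusted p = 1.21e-05 in edgeR), and rose by 2.32 ± 0.23 in pAP142 and 1.78 ± 0.22 in pAP141. The PIP1 genes shown above by their promoters were both higher in the morning in all 3 genotypes. PIP1A had 352, 351 and 316 TPM in Col-0 t2, against 136, 132, 162 and 171 TPM in Col-0 t1 (log2 fold change 1.36 ± 0.20, adjusted p = 3.94e-05 in edgeR), and rose by 2.02 ± 0.22 in pAP142 and 1.59 ± 0.22 in pAP141. Its relative PIP1B had 863, 812 and 802 TPM in Col-0 t2, against 451, 442, 459 and 446 TPM in Col-0 t1 (log2 fold change 1.07 ± 0.11, adjusted p = 5.08e-07 in edgeR), and rose by 1.26 ± 0.12 in pAP142 and 1.36 ± 0.12 in pAP141. GAMMA-TIP2 rose by 0.63 ± 0.15 in Col-0 (adjusted p = 0.00329 in edgeR), 0.64 ± 0.16 in pAP142 and 1.05 ± 0.16 in pAP141. Genes of both membranes were thus higher in the morning.

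Some close relatives of these genes were not called in Col-0. GAMMA-TIP was at -0.07 (adjusted p = 0.837 in edgeR), DELTA-TIP2 at 0.04, DELTA-TIP3 at 0.30, PIP2B at 0.32 (adjusted p = 0.388) and PIP2F at -0.27. In pAP142 GAMMA-TIP (0.70 ± 0.22, adjusted p = 0.0234 in edgeR), DELTA-TIP2 (1.21 ± 0.34, adjusted p = 0.0139) and PIP2B (1.07 ± 0.28, adjusted p = 0.00872) also rose, which made 8 members, beside 13.1% of all genes. The times overlapped in TPM for these 3, as for GAMMA-TIP2. All 3 were lost without pAP142 t2 replicate 1 (5 members called), and GAMMA-TIP and DELTA-TIP2 without pAP142 t1 replicate 2 or replicate 3 (6 members called). Fitted on the compared groups alone, 5 members were called.

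In pAP141 5 members rose, beside 17.9% of all genes, and 8 on the compared groups alone. DELTA-TIP3 was at 1.03 (adjusted p = 0.0666 in edgeR), DELTA-TIP2 at 0.77 (0.0947) and PIP2B at 0.69 (0.0751), although the times were separate for each of them. In pAP141 the times were separate for 9 members, and the share of all genes was not counted. PIP2B with the reads of PIP2C was called in pAP141, at 0.94 ± 0.26, adjusted p = 0.00942 in edgeR, and was not in Col-0, at 0.55 ± 0.23, adjusted p = 0.0856. On the TPM scale the median gene was 0.19 (Col-0), 0.18 (pAP142) and 0.24 (pAP141) lower than in the fit, and there GAMMA-TIP was at -0.25 in Col-0 and -0.25 in pAP141, and DELTA-TIP2 at -0.14 in Col-0.

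**Figure D3:**
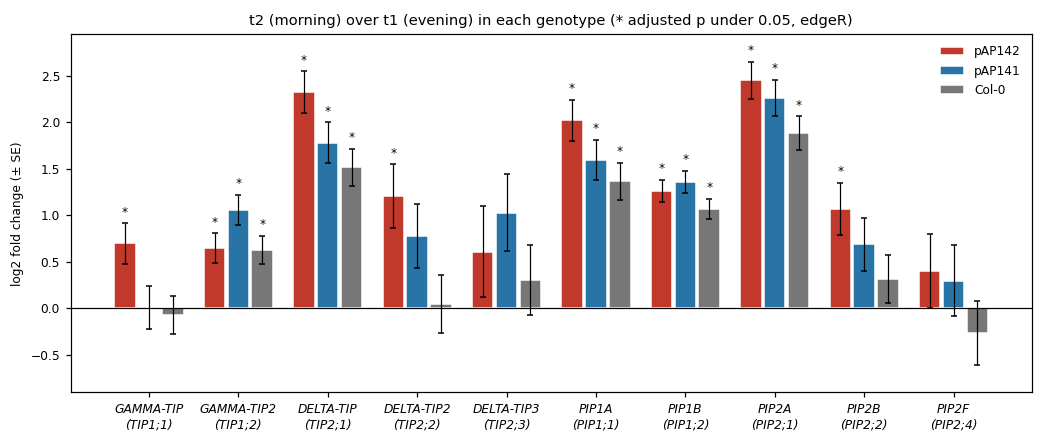
Log2 fold change (y, SE bars) of t2 over t1 for each member in pAP142, pAP141 and Col-0, with stars at adjusted p under 0.05 in edgeR. GAMMA-TIP2, DELTA-TIP, PIP1A, PIP1B and PIP2A carry a star in all 3 genotypes, with PIP2A tallest in each.

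Leaf markers rose with these genes: the 10 leaf markers summed to 73183 to 76699 TPM in Col-0 t2, against 54522 to 60967 TPM in Col-0 t1, with 7 called higher. Root markers summed to 631 to 838 TPM in Col-0 t2, against 1071 to 1239 TPM in Col-0 t1, with 1 of 16 called lower and a median log2 fold change of 0.25. The sum fell while the median did not, so the sum, which weighs abundant genes most, does not stand for most of the 16 here. The part of leaf and root markers in the morning rise was not tested. Of the 19 other aquaporins, 5 rose and 4 fell in Col-0, 8 rose and 2 fell in pAP142, and 7 rose and 3 fell in pAP141. Of all 21356 genes, 6542 were called in either direction in Col-0, 5763 in pAP142 and 7388 in pAP141. PIP3A (PIP2;7) rose by 1.09 in pAP142, 1.32 in pAP141 and 1.15 in Col-0, PIP1C by 1.31, 1.05 and 0.87, and PIP1E (PIP1;4) by 0.96, 1.19 and 0.95.

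The pAP146 experiment asks what loss of a further block does, in homozygous and heterozygous plants. Against sibling leaves, 2 members rose and 5 fell in homozygous seedlings, in a comparison where 33% of all genes were called higher and 27.8% lower. DELTA-TIP3 and PIP2F, all but silent in leaves, were those that rose. The size of the falls depends on the scale, because the median gene was 0.74 higher on the TPM scale than in the fit (log2).

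DELTA-TIP3 had 0.0563, 8.66, 12.6 and 50.03 TPM in homozygous seedlings, 0.0227, 0.0933 and 0 TPM in heterozygous leaves, 0, 0, 0.145 and 0.0459 TPM in sibling leaves and 0 TPM in all Col-0 leaves. Homozygous replicate 1, with 2 reads, lay among the leaves, and the other seedlings far above them. The log2 fold change against siblings was 7.76 ± 1.63 (adjusted p = 0.00191 in edgeR). With 0 to 5 reads in each leaf sample, DELTA-TIP3 passed the count filter only through these seedlings. Its direction against sibling or Col-0 leaves was therefore not open in the test. Against Col-0 leaves, which had 0 reads, the mean of homozygous seedlings was at least 200.2-fold higher, with the floor set at 3 reads per library (0.0892 TPM). This limit rests on homozygous replicate 4, without which it was 79.9-fold, and replicate 1 lay under the floor itself. PIP2F had 1.65, 9.46, 21.3 and 59.9 TPM in homozygous seedlings, against 0.550, 0.598, 0.578 and 0.797 TPM in sibling leaves (log2 fold change 4.40 ± 0.78, adjusted p = 0.000291 in edgeR). Every homozygous seedling had more PIP2F than every leaf sample. Without homozygous replicate 2, 3 or 4, DELTA-TIP3 did not pass the count filter and was not tested.

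The same seedlings differed in root markers, which summed to 138, 189, 460 and 645 TPM in homozygous replicates 1, 2, 3 and 4, against 3.37 to 10.3 TPM in sibling leaves. EXPA7 and EXPA18 were at 0 in homozygous replicate 1. All 15 root markers tested were called higher and all 10 leaf markers lower than in siblings. Of the 16 root markers, 7 were at 0 TPM in all sibling leaves, 9 in all heterozygous leaves and 10 in all Col-0 leaves. Markers without reads in leaves pass the count filter only through the seedlings, and can then only be higher. For them the call does not test the direction. The leaf markers summed to 41646 to 68327 TPM in homozygous seedlings, against 105492 to 120866 TPM in sibling leaves. DELTA-TIP3 and PIP2F stood in the same order as the root marker sums over the 4 seedlings, and so did PIP2B (45.5, 49.0, 90.6 and 164 TPM). GAMMA-TIP, DELTA-TIP2, PIP1A and PIP2A differed from this order only in that replicate 2 lay under replicate 1. The share of all genes in this order was not counted. The part of root tissue was not tested.

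**Figure D4:**
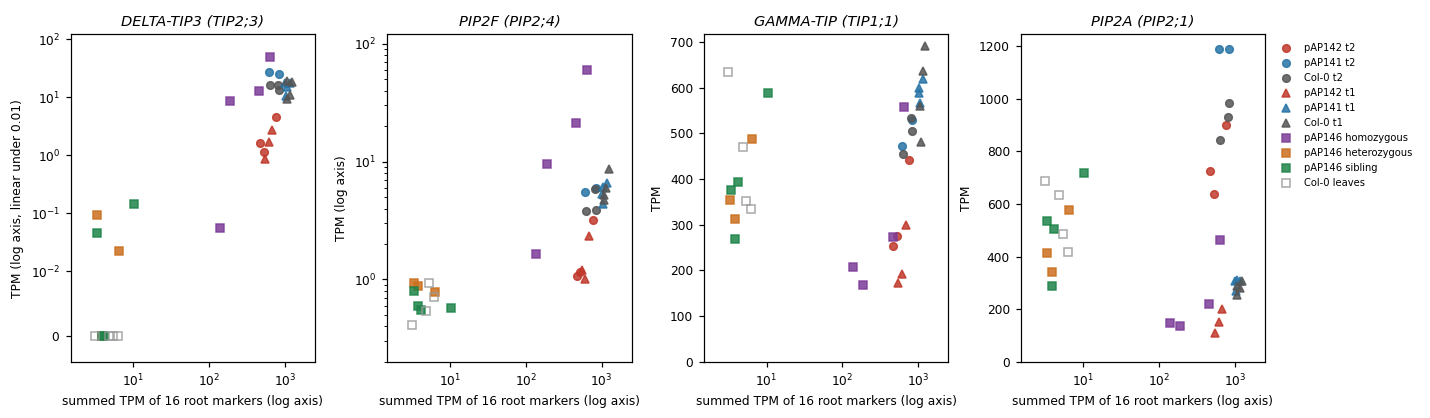
TPM of DELTA-TIP3 and PIP2F (y, log axes, linear under 0.01 for DELTA-TIP3) and of GAMMA-TIP and PIP2A (y, linear axes) against the summed TPM of 16 root markers (x, log axis) in each of the 34 samples. Leaves lie at 3.13 to 10.3 TPM of root markers with at most 0.145 TPM of DELTA-TIP3, homozygous pAP146 seedlings at 138 to 645 TPM, and pAP142 seedlings lie under the other seedling pools for DELTA-TIP3.

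PIP2A had 149, 136, 221 and 464 TPM in homozygous seedlings, against 504, 289, 719 and 536 TPM in sibling leaves (log2 fold change -1.83 ± 0.36, adjusted p = 0.000681 in edgeR). DELTA-TIP had 261, 97.6, 186 and 367 TPM in homozygous seedlings, against 442, 406, 481 and 476 TPM in sibling leaves (log2 fold change -1.73 ± 0.30, adjusted p = 0.000234 in edgeR). These 2 genes, abundant in leaves, were also called lower by limma on the TPM scale, at -1.18 and -1.13. GAMMA-TIP (-1.18 ± 0.34, adjusted p = 0.00818 in edgeR), PIP1A (-0.98 ± 0.30, 0.011) and GAMMA-TIP2 (-0.85 ± 0.22, 0.00445) fell in edgeR, but their log2 ratios of mean TPM were -0.43, -0.24 and -0.10 and limma called none of the 3. PIP1B had 457, 236, 439.8 and 764 TPM in homozygous seedlings, against 409, 341, 495 and 418 TPM in sibling leaves, which gave -0.56 (adjusted p = 0.066 in edgeR) and 0.19 on the TPM scale. PIP2B had 45.5, 49.0, 90.6 and 164 TPM in homozygous seedlings, against 50.5, 28.4, 74.1 and 54.3 TPM in sibling leaves, close to 0 in the fit (adjusted p = 0.996 in edgeR) and 0.75 on the TPM scale. DELTA-TIP2 was at -0.89 (adjusted p = 0.106 in edgeR). Replicate 4 was the highest homozygous seedling for all 10 members, and without it DELTA-TIP2 and PIP1B were called lower too.

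**Figure D5:**
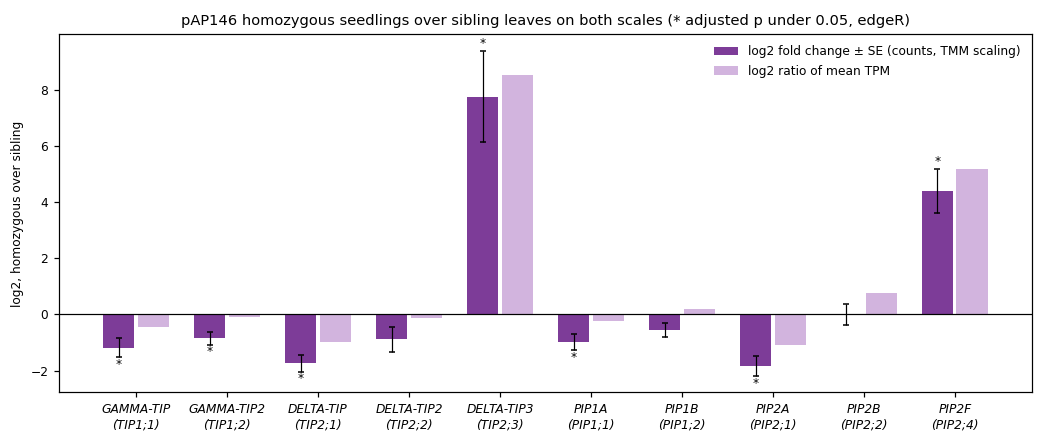
Homozygous pAP146 seedlings over sibling leaves for each member, as log2 fold change with SE bars (dark, stars at adjusted p under 0.05 in edgeR) and as log2 ratio of mean TPM (light). DELTA-TIP3 and PIP2F are above 0 on both scales, PIP2A and DELTA-TIP below 0 on both, and PIP1B is at -0.56 on the first and 0.19 on the second.

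With Col-0 leaves as controls the same 2 members rose and 7 fell, beside 33.8% of all genes called higher and 28.2% lower. The 5 that had fallen against siblings lay between -1.96 (PIP2A) and -0.95 (PIP1A). DELTA-TIP2 (-1.26, adjusted p = 0.027 in edgeR) and PIP1B (-0.67, adjusted p = 0.0296) were added. By limma on the TPM scale, chosen after seeing the data, the same 2 rose but only DELTA-TIP and PIP2A fell, while GAMMA-TIP, GAMMA-TIP2, DELTA-TIP2, PIP1A and PIP1B were not called, with log2 ratios of mean TPM of -0.57, -0.20, -0.50, -0.19 and 0.07. PIP2B was at -0.28 in the fit and 0.48 on the TPM scale. Both added calls were lost without Col-0 leaves replicate 1 and without homozygous replicate 2 or 3, that of DELTA-TIP2 without homozygous replicate 1, and that of PIP1B without Col-0 leaves replicate 3. Without homozygous replicate 4, PIP2B was called lower.

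Heterozygous leaves were not told from sibling leaves. No member was called by edgeR, DESeq2 or limma, 0 had an unadjusted p under 0.05, and log2 fold changes lay between -0.41 (DELTA-TIP2) and 0.35 (PIP2F), beside 0.0528% of all genes called. Between sibling and Col-0 leaves 0 members were called by any of these tools, 0 had an unadjusted p under 0.05, and 0.0144% of all genes were called. Leaving aside DELTA-TIP3, with 0 to 5 reads, log2 fold changes there lay between -0.38 (DELTA-TIP2) and 0.03 (PIP1A). PIP2A, for example, had 579, 415 and 343 TPM in heterozygous leaves, 504, 289, 719 and 536 TPM in sibling leaves and 688, 633, 487 and 415 TPM in Col-0 leaves.

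Homozygous pAP146 seedlings were also set against the Col-0 seedlings of the time of day experiment, in 1 model of all 34 samples, where experiment, growth and genotype cannot be told apart. There 1 member rose and 5 fell, beside 31.9% of all genes called higher and 27.8% lower. PIP2F rose (1.96 ± 0.45, adjusted p = 0.000569 in edgeR), and DELTA-TIP3 was at 0.10 ± 0.62, so that the distance of DELTA-TIP3 from leaves was not seen against seedlings. DELTA-TIP (-1.48 ± 0.23), PIP2A (-1.20 ± 0.26), GAMMA-TIP (-0.98 ± 0.25), PIP1A (-0.69 ± 0.23) and PIP1B (-0.48 ± 0.16) fell. GAMMA-TIP2 (-0.17) and DELTA-TIP2 (-0.35) were not called. Against t1 seedlings alone PIP1A was at 0.00035 and PIP1B at 0.0702, the call of PIP2A was lost as well (-0.24, adjusted p = 0.469 in edgeR), and 3 members were called, 1 higher and 2 lower. PIP1A and PIP1B were not called without homozygous replicate 2 (4 members called), PIP1B was not without replicate 3, and without replicate 4 9 members were called. PIP2B was at -0.61 (adjusted p = 0.067 in edgeR), and with the reads of PIP2C at -0.77 ± 0.29, adjusted p = 0.0222. Root markers summed to 138 to 645 TPM in homozygous seedlings, against 631 to 1239 TPM in Col-0 seedlings, and their part was not tested.

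Between Col-0 seedlings and Col-0 leaves in the same model, 2 members rose and 3 fell, beside 33.1% of all genes called higher and 31% lower. The seedlings and leaves belong to different experiments, so tissue and experiment cannot be told apart here. The falls depend on the scale, since limma on log2(TPM + 1) called 4 members higher, DELTA-TIP3, PIP2F, PIP2B and PIP1B, and 0 lower. DELTA-TIP3 was at least 172-fold higher in Col-0 t2 and at least 159.6-fold higher in Col-0 t1 than the floor of 3 reads per library in leaves. PIP2F rose by 2.38 ± 0.56 (adjusted p = 0.000629 in edgeR), and root markers, at 631 to 1239 TPM in seedlings, against 3.13 to 6.24 TPM in leaves, differed in the same direction. DELTA-TIP2 (-0.93 ± 0.34), GAMMA-TIP2 (-0.79 ± 0.16) and PIP2A (-0.77 ± 0.24) fell in the fit, with -0.28, -0.15 and -0.13 on the TPM scale, where the median gene was 0.64 higher than in the fit. GAMMA-TIP, DELTA-TIP, PIP1A and PIP1B were at -0.36, -0.41, -0.27 and -0.20 in the fit and at 0.28, 0.23, 0.38 and 0.44 on the TPM scale, so no direction is given for them. PIP2B had 130.1, 144 and 109 TPM in Col-0 t2 and 106, 103, 134 and 122 TPM in Col-0 t1, against 76.5, 74.0, 54.8 and 44.9 TPM in Col-0 leaves, with no overlap. It was at 0.32 in the fit (adjusted p = 0.337 in edgeR) and 0.96 on the TPM scale. The call of DELTA-TIP2 was lost without Col-0 leaves replicate 1. With t2 seedlings alone PIP2A was at 0.18 and 3 members were called, and with t1 seedlings alone 8 were called.

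Among the other aquaporins, 6 rose and 6 fell of 18 tested in homozygous seedlings against siblings, and 8 rose and 5 fell against Col-0 leaves. Over all genes, 33% were called higher and 27.8% lower against siblings, and 33.8% and 28.2% against Col-0 leaves. PIP1D (-1.30 against siblings) and PIP2E (PIP2;6, -1.78), both plasma membrane genes, fell. PIP1E (-0.46) and SIP1A (SIP1;1, -0.24), a small basic intrinsic protein gene, fell in the fit, with 0.27 and 0.52 on the TPM scale. Against Col-0 seedlings 3 of 20 rose and 6 fell, beside 31.9% of all genes called higher and 27.8% lower. Between Col-0 seedlings and leaves 9 of 20 rose and 6 fell, beside 33.1% higher and 31% lower.

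Across the means of the 10 groups (log2(TPM + 1), 15353 genes), the gene outside the family nearest to each member was found by Pearson correlation, as a description over 10 points that share libraries. DELTA-TIP3 was nearest to ADF11, an actin depolymerizing factor gene (0.99), then AT1G70860 and AT1G30870. PIP2F was nearest to RHS19, named for root hairs (0.99), then AT5G42510 and AT5G57625. At 0.9 or more stood 178 genes for DELTA-TIP3, 172 for PIP2F, 84 for PIP1B and 80 for PIP2A, against 0 to 23 for the other members. The nearest genes of DELTA-TIP3 and PIP2F are thus named from among many with high values. PIP1A (0.99) and DELTA-TIP (0.95) were both nearest to SAUR63, a small auxin up RNA gene, followed by AT1G29430 and SAUR27 for PIP1A and by AT2G21200 and AT1G29430 for DELTA-TIP. PIP2A was nearest to PKS2, a phytochrome kinase substrate gene (0.99), then AT2G47370 and AT1G19450. GAMMA-TIP2 was nearest to AT1G29500 (0.95), TRFL8 and AT1G29450, and PIP1B to AT2G29290 (0.98), AT1G70985 and AT1G65870. GAMMA-TIP (0.94) and DELTA-TIP2 (0.89) shared AT2G40020, with TBL6 and AT2G45180 next for GAMMA-TIP and GPAT8 and TUB8 for DELTA-TIP2. PIP2B was nearest to AT2G35760 (0.97), SWEET16, a vacuolar sugar transporter gene, and AT4G30450. Between members the highest value was 0.96 (DELTA-TIP and PIP1A) and the lowest -0.17 (PIP2A and PIP2F).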

How the data were processed

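RNA was measured in 34 samples with a stranded mRNA kit. The authors aligned reads with HISAT2 2.2.1 and quantified them with Salmon 1.6.0 against the Araport11 primary transcriptome, per the study's methods and the submitters' processing notes, which also name DESeq2 1.44.0. The deposited values are estimated counts, TPM and an effective length for each gene and sample.

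Estimated counts were rounded and tested with the quasi-likelihood test of edgeR 4.0.16 (R 4.3.3; TMM scaling, filterByExpr, robust fit, Benjamini-Hochberg adjustment, threshold 0.05) in fits of the 19 time of day samples (21356 genes), the 15 pAP146 samples (20833) and all 34 (21879), after a check on simulated data. Alternatives were DESeq2 1.42.0, RLE size factors, no filter, effective length offsets, only the compared groups, 1 model of all samples, a replicate block, single samples left out, 1 time point of seedlings, PIP2B and PIP2C summed, and, chosen after seeing the data, limma 3.58.1 on log2(TPM + 1). The totals of 26640541 to 43851997 reads per sample set the precision, and ± is an SD over samples for TPM and an SE for log2 fold changes.

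The members and gene lists were chosen with earlier results of these data known. The rule for names took all members, given by range where none was called, other aquaporins by count and, if called and at 5 TPM or more, at most the 4 of highest TPM, and the 3 genes of most similar pattern. Sequences and coordinates come from RefSeq on TAIR10.1, where 27356 of the 27538 genes were found and 27352 had the same coding length. Nothing says whether samples with the same replicate number share more than that number.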

Additional observations from a re-analysis of the deposited data

Results flagged for a closer look

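Of 50 checks of a member in a group of 4 samples, 1 stood apart: PIP2A in pAP141 t1, where replicate 3 had 268.877 TPM, below replicates 1, 2 and 4 with 310, 305 and 308 TPM. The gap to the nearest sample was 0.895 of the whole range, and chance alone is expected to single out about 1 in 20 such groups. PIP2A was called higher at t2 than at t1 in pAP141 with each sample left out in turn, and without pAP141 t1 replicate 3 still no member was called against Col-0 t1.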

How the results depend on the processing

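Over members with a call in some fit, 1236 of 1344 values under the alternatives kept their direction and side of the threshold, 73 were no longer called, 31 became called and 4 changed direction. Members with no call in any fit were not followed for direction. The 4 were PIP1A (0.00035) and PIP1B (0.0702) in homozygous pAP146 against t1 seedlings alone, PIP2A (0.18) in t2 seedlings alone against leaves, and PIP1B in seedlings against leaves by limma on TPM (0.44, adjusted p = 0.0173). The causes were not tested.

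With 1 model of all 34 samples, 6 members were called in pAP142 at t1 and 0 at t2. At t2, RLE size factors gave 2 and no filter 2. DESeq2 called 1 member in pAP141 at t2. With only the compared groups, 5 members were called between times in pAP142 and 8 in pAP141. Limma on TPM called 4 in homozygous pAP146 against siblings and 4 against Col-0 leaves, and for seedlings against leaves 4 higher and 0 lower. Against t1 seedlings alone homozygous pAP146 had 3, and seedlings against leaves gave 8 with t1 alone and 3 with t2 alone.

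Leaving out single samples gave 8 to 10 members in pAP142 at t1, 1 to 6 at t2, 0 to 2 in pAP141 at t2, 5 to 8 between times in pAP142, 0 to 1 in the pAP142 interaction, 6 to 8 in homozygous pAP146 against siblings, 6 to 9 against Col-0 leaves, 4 to 9 against Col-0 seedlings, and 4 to 5 for seedlings against leaves. It left the counts of the other comparisons as they were, 5 between times in Col-0 and in pAP141 and 0 in the rest. Over all genes, pAP142 at t1 had 3916 calls, against 1629 in the model of all 34 samples and 2190 to 2353 without pAP142 t1 replicate 3 or 2. At t2 it had 1654, against 332 in that model, 1047 on the compared groups alone and 661 to 2544 with single samples left out. The pAP141 comparison had 16 calls at t1, against 1086 by DESeq2 and 2418 without pAP141 t1 replicate 3, and 21 at t2, against 449 by DESeq2, 13 in the model of all 34 samples or by limma, 9 on the compared groups alone and 10 to 2472 with single samples left out, the highest without pAP141 t2 replicate 2. The interaction had 45 for pAP142, against 248 by DESeq2, 7 in the model of all 34 samples, 12 on the compared groups alone, 15 with a replicate block and as few as 3 with single samples left out, and 0 for pAP141, against 13 by DESeq2, 1 by limma and 138 without pAP141 t2 replicate 2. Heterozygous pAP146 against siblings had 11, against 38 by DESeq2, 30 in the model of all 34 samples, 0 with a replicate block and as few as 0 with single samples left out.

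Over all genes, deviations of same-numbered samples had a mean correlation of 0.0212 over 41 pairs in the time of day experiment. It was -0.0319 over 21 pairs in the pAP146 experiment. Among the members, however, pAP142 replicate 1 was the highest pool at both times for all but PIP1B. Whether same-numbered pools share an origin is not known, and only the replicate block allows for it. With a replicate block, 8 members were called in homozygous pAP146 against siblings and 7 against Col-0 seedlings, and the counts of the other 13 comparisons did not change. Groups of 2 to 4 samples and 1 line per deletion limit the precision of every value.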
